A study of Mus musculus with 12 samples.

Results

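The retinoid X receptors of the mouse are encoded by 3 genes, Rxra, Rxrb and Rxrg, and these 3 of the 54532 genes in the deposited tables were taken by their gene symbols. RNA-seq had been performed on 12 mammary tumors of MMTV-Neu mice, in which the MMTV promoter drives unactivated, wild-type Neu in the mammary gland. The tumors came from mice given control diet (n = 4), MSU-42011 at 100 mg/kg diet (n = 4) or bexarotene at 100 mg/kg diet (n = 4) for 10 days, starting once a tumor was established, and all mice had been moved to the same powdered chow. MSU-42011 and bexarotene are RXR agonists, so the comparison asks whether the transcripts of their own receptors differed with the diet. The study describes as many mice as libraries in each group, but the labels do not tie each tumor to a mouse, so p-values measure the spread between these tumors.

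RXRs are nuclear receptors that bind 9-cis retinoic acid and synthetic rexinoids, and they act as homodimers or as the shared partner of other nuclear receptors. Heterodimers with the peroxisome proliferator-activated receptors (PPARs) or the liver X receptors (LXRs) are called permissive, since an RXR ligand alone can switch them on, whereas those with the vitamin D or thyroid hormone receptors are called nonpermissive. RXRα is the main form in skin and liver, RXRβ is found in nearly every tissue, and RXRγ is best known from muscle and brain.

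The 3 receptors share an almost fixed DNA-binding domain. The stretch below is the first zinc finger of that domain, printed to show how alike the 3 coding sequences are where the protein is the same, and so whether reads of one receptor could be counted for another. It comes from the GENCODE M21 transcripts Rxra-201, Rxrb-201 and Rxrg-201 of the mouse build GRCm38 and covers 63 bases each, at coding bases 418 to 480 of Rxra, 574 to 636 of Rxrb and 415 to 477 of Rxrg. Capitals mark the 4 cysteine codons that hold the zinc ion.
Rxra: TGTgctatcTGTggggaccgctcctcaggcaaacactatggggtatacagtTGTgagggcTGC
Rxrb: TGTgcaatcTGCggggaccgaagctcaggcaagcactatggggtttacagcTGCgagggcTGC
Rxrg: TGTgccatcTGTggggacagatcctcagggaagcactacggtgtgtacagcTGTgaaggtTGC
Between Rxra and Rxrb, 8 of the 21 codons of this finger differed, and all 8 differences were synonymous. The number was 10 between Rxra and Rxrg and 11 between Rxrb and Rxrg, again all synonymous. Base identity in the finger was 85.7%, 82.5% and 81.0% for these pairs. Over the aligned coding sequences the identity was 74.9% for Rxra and Rxrb, 73.8% for Rxra and Rxrg and 73.3% for Rxrb and Rxrg. No run of 50 bases in any transcript of one receptor was found in a transcript of another. Of 5444 such runs in Rxra and 4147 in Rxrb, 0 occurred in any other gene, against 8 of 2345 (0.341%) in Rxrg. A read that spans such a run can be told apart between the 3 genes.

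Rxra (ENSMUSG00000015846) lies at chr2:27676440-27762957, Rxrb (ENSMUSG00000039656) at chr17:34031812-34038393 and Rxrg (ENSMUSG00000015843) at chr1:167598384-167639623, all on the plus strand in the coordinates of the deposited tables, which for 98.0% of genes equal those of GENCODE M21 on GRCm38. No other gene of the table overlaps any of them. Slc39a7, a zinc transporter gene, starts on the minus strand 122 bases before Rxrb. The RefSeq promoter windows (GRCm38.p6, 250 bases before to 50 after the RefSeq start) differed in composition. Each gene had 2 windows listed, and the most upstream was used. That of Rxra, at chr2:27676951-27677250, lies inside the gene as placed above, downstream of its start there. The window of Rxra held 55 CpG and 4 copies of the GC box GGGCGG on either strand, that of Rxrb 37 CpG and 2 copies, and that of Rxrg 13 CpG and 0 copies. The median over 32851 promoter windows was 7 CpG, and 35.7% held at least 1 GC box. The nuclear receptor half-site AGGTCA, present in 16.3% of all windows, was found in none of the 3 on either strand.

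The libraries held 16583413 to 25925027 reads on genes. Bexarotene replicate 1 stood apart, at −115 on the first principal component (33.6% of the variance) against −16.2 to 34.2 for the other 11 tumors. Its summed fibroblast markers reached 10460 CPM, against 92.3 to 813 CPM elsewhere, and its summed luminal epithelial markers were the lowest, at 3334 CPM against 5071 to 6909 CPM. All 9 luminal epithelial markers, among them Epcam, Krt8 and Erbb2, were past edgeR's low-count filter, so the defining markers of the labelled tissue were present. Of the 15504 genes tested by edgeR, 0.0% had an adjusted p under 0.05 in each pair of diets.

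Rxra was expressed in every tumor and did not differ between the diets by more than the spread within them. Levels are given as normalized CPM, which are reads divided by library size after edgeR's TMM scaling. In the control tumors, replicates 1 to 4 stood at 80.7, 118, 81.0 and 84.1 CPM. The MSU-42011-treated tumors had 72.7, 74.4, 126 and 70.7 CPM, and the bexarotene-treated tumors 103, 58.5, 72.9 and 64.3 CPM. Each group thus held 1 tumor well above the other 3, and the groups overlapped. Against the control tumors, 3 of 4 MSU-42011-treated tumors lay below all 4 controls and the remaining one lay above all of them. With bexarotene, 3 of 4 lay below all controls and none lay above. In bulk tumor RNA, fewer cells that make a transcript and less of it per cell cannot be told apart.

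**Figure D1:**
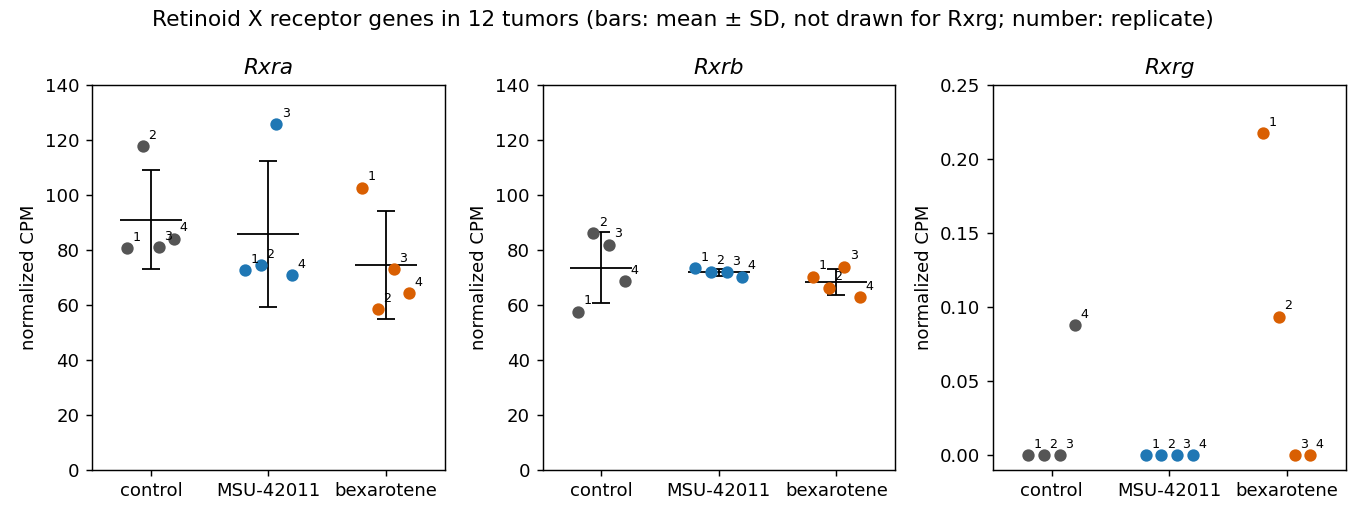
Normalized CPM (y axis) of Rxra, Rxrb and Rxrg in each tumor, by diet (x axis), with replicate numbers, and the mean ± SD of 4 tumors as bars for Rxra and Rxrb. For Rxra, control replicate 2 (118), MSU-42011 replicate 3 (126) and bexarotene replicate 1 (103) stand above the rest of their groups, and for Rxrg 9 of 12 tumors are at 0.

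Rxra averaged 90.9 ± 18.0 CPM under the control diet, 85.9 ± 26.6 CPM under MSU-42011 and 74.6 ± 19.6 CPM under bexarotene (SD over 4 tumors each). Relative to control, Rxra was 0.945-fold with MSU-42011 (95% interval 0.673 to 1.33, edgeR adjusted p = 0.9999) and 0.821-fold with bexarotene (0.585 to 1.15, adjusted p = 0.896). In the direct comparison the level with MSU-42011 was 1.15-fold that with bexarotene (0.820 to 1.61, adjusted p = 0.997). A two-sided exact permutation test, whose smallest p at this group size is 0.0286, gave p = 0.571, 0.286 and 0.514 for these 3 comparisons. Neither Rxra nor Rxrb was called in any pair of diets by edgeR, DESeq2 or limma on FPKM, at an adjusted p or at an unadjusted p under 0.05. The unadjusted threshold was passed by 1.99% of genes with MSU-42011 against control, 6.44% with bexarotene against control and 3.95% between the 2 agonists in edgeR, and by 1.59%, 4.70% and 3.13% in DESeq2. DESeq2 at an adjusted p under 0.05 called 0.00338%, 0.0356% and 0.153% of the genes it adjusted.

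Leaving out single tumors moved the Rxra differences. Without control replicate 2, the log2 fold change of MSU-42011 against control turned from −0.08 to 0.066, and without MSU-42011 replicate 3 it fell to −0.32. Without bexarotene replicate 1, the log2 fold change of bexarotene against control went from −0.28 to −0.48. It was −0.14 without control replicate 2 and −0.18 without bexarotene replicate 2, and it stayed negative with each of the 12 tumors left out in turn, with no call. The markers of other cells were also high in 2 of the 3 tumors with high Rxra. MSU-42011 replicate 3 had 495 CPM of summed macrophage markers against 196 to 275 CPM in its group, and 461 CPM of fibroblast markers against 163 to 287 CPM. Bexarotene replicate 1 had 1588 CPM of macrophage markers against 213 to 368 CPM. Control replicate 2, with 118 CPM of Rxra, had the lowest fibroblast markers of all 12 tumors, at 92.3 CPM, and 397 CPM of macrophage markers within a control range of 179 to 472 CPM. Control replicate 1, with 80.7 CPM of Rxra, had the highest macrophage (472 CPM) and fibroblast (425 CPM) markers of its group. Over the 12 tumors, r of Rxra was 0.54 with macrophage markers and 0.16 with fibroblast markers. All 8 markers of each list passed the filter, none was at 0 throughout, and their part in the level of Rxra was not tested.

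Rxra varied more between tumors of a group than most genes of its level. Its biological coefficient of variation in the edgeR fit was 0.235, against a median of 0.160 over 2469 genes within 1.5-fold of its level, and 87.9% of those had a lower one. Counting error alone was 1.90% to 3.09% for the 1050 to 2785 reads per tumor, so depth was not the limit. Rxrb, at 0.145, lay below the median of 0.161 over 2778 genes of like level.

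Rxrb did not differ between the diets by more than the spread among the control tumors. The control tumors had 57.5, 86.2, 81.9 and 68.6 CPM, the MSU-42011-treated tumors 73.4, 72.1, 71.8 and 70.2 CPM and the bexarotene-treated tumors 70.2, 66.2, 73.9 and 62.8 CPM. The range of the control tumors enclosed all 8 treated tumors. The highest MSU-42011-treated tumor was 1.045 times the lowest, against 1.499 times among controls. Rxrb was 0.977-fold with MSU-42011 (95% interval 0.816 to 1.17, edgeR adjusted p = 0.9999) and 0.929-fold with bexarotene (0.776 to 1.11, adjusted p = 0.930), relative to control. MSU-42011 against bexarotene gave 1.05-fold (0.879 to 1.26, adjusted p = 0.997). The exact permutation p-values were 0.914, 0.486 and 0.286. The sign of the MSU-42011 difference was not settled, since the log2 fold change of −0.033 turned to 0.052 without control replicate 2, to 0.023 without control replicate 3, and to 0.046 with limma on log2(FPKM + 1).

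**Figure D2:**
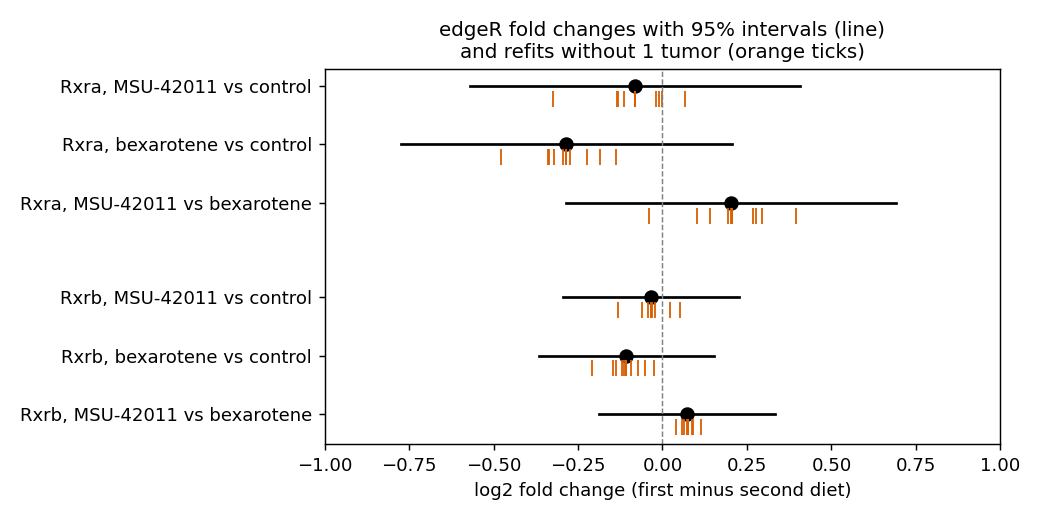
Log2 fold change (x axis) of Rxra and Rxrb in each pair of diets from edgeR (points) with 95% intervals (lines), and the value when 1 of the 12 tumors is left out (orange ticks). Every interval includes 0, and the ticks cross 0 for Rxra in MSU-42011 against control and against bexarotene and for Rxrb in MSU-42011 against control.

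For the 2 agonists, which were fed at the same dose for the same time, the direct comparison bounds how far the receptor transcripts could differ. The interval of MSU-42011 against bexarotene ran from −0.29 to 0.69 for Rxra and from −0.19 to 0.33 for Rxrb on the log2 scale. A p that misses the threshold does not show that the agonists act alike on these genes. The Rxra difference, 0.20 in favor of MSU-42011, became −0.039 without MSU-42011 replicate 3 and 0.40 without bexarotene replicate 1. In no pair of diets did the groups separate for Rxra or Rxrb, which occurred for 1.97% of tested genes with MSU-42011 against control, 2.03% with bexarotene against control and 1.17% between the agonists. Across all 3 diets, neither gene was called (edgeR F test, adjusted p = 0.998 for both), nor had either an unadjusted p under 0.05, which 4.24% of genes had in edgeR and 3.53% in DESeq2. At an adjusted p under 0.05, the share over all 3 diets was 0.0% in edgeR and 0.0296% in DESeq2.

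Rxrg was at or near the limit of detection. Of the control tumors, replicate 4 had 2 reads and the others 0. All 4 MSU-42011-treated tumors had 0 reads. With bexarotene, replicates 1 and 2 had 6 and 2 reads and the others 0. Rxrg was removed by edgeR's low-count filter. As CPM without TMM scaling, the group totals were 0.0244 for control (2 of 82088045), 0.0949 for bexarotene (8 of 84257188) and 0 of 75594789 for MSU-42011, which allows up to 0.0397 (3 reads over the group). These limits cover counting error only. Bexarotene against control gave a ratio of 3.90 with an exact 95% counting interval of 0.778 to 37.7, and 1.41 (0.102 to 19.4) without bexarotene replicate 1. In an edgeR fit without the filter, MSU-42011 against bexarotene gave unadjusted p = 0.0453 and adjusted p = 0.792, and the exact permutation p was 0.429. Summed skeletal muscle markers were 329 CPM in bexarotene replicate 1, 12.5 CPM in bexarotene replicate 2 and 12.1 CPM in control replicate 4, the 3 tumors with Rxrg reads. In control replicate 1, with 176 CPM of these markers, Rxrg had 0 reads. All 12 muscle markers had reads and 5 passed the filter, and their part in the Rxrg reads was not tested.

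The order of the receptors in these tumors was Rxrb, then Rxra, then Rxrg, when reads were divided by gene length. The deposited FPKM, in which the authors divided reads by depth and by a gene length, averaged 57.2 ± 6.51 for Rxrb, 37.7 ± 9.80 for Rxra (SD, n = 12) and 0.0184 for Rxrg. Rxrb exceeded Rxra in 12 of 12 tumors by a median of 1.74-fold (1.02 to 2.02), with an exact sign-flip permutation p = 0.000488, the smallest that 12 tumors allow. By reads alone the order was the other way, with 20461 reads for Rxra and 17303 for Rxrb in total. The order thus rests on the length used. The FPKM values imply lengths of 2227 bases for Rxra and 1247 for Rxrb, against 5462 and 3698 listed in the same tables. With the listed lengths Rxrb was higher in 11 of 12 tumors, by a median of 1.44-fold (0.843 to 1.67, exact sign-flip permutation p = 0.00440). With the longest coding transcript, a choice made after seeing the data, it was higher in 12 of 12, by 1.82-fold (1.07 to 2.11). With the M21 mean transcript lengths given below, 2227.2 and 1436.1 bases, also chosen after seeing the data, it was higher in 11 of 12, by 1.51-fold (0.886 to 1.75, exact sign-flip permutation p = 0.00195). MSU-42011 replicate 3 had the lowest ratio of the 12 tumors on each of these scales, at 1.02, 0.843, 1.07 and 0.886 in this order. Among tested genes, 77.7% had a lower mean FPKM than Rxra and 85.3% a lower one than Rxrb.

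**Figure D3:**
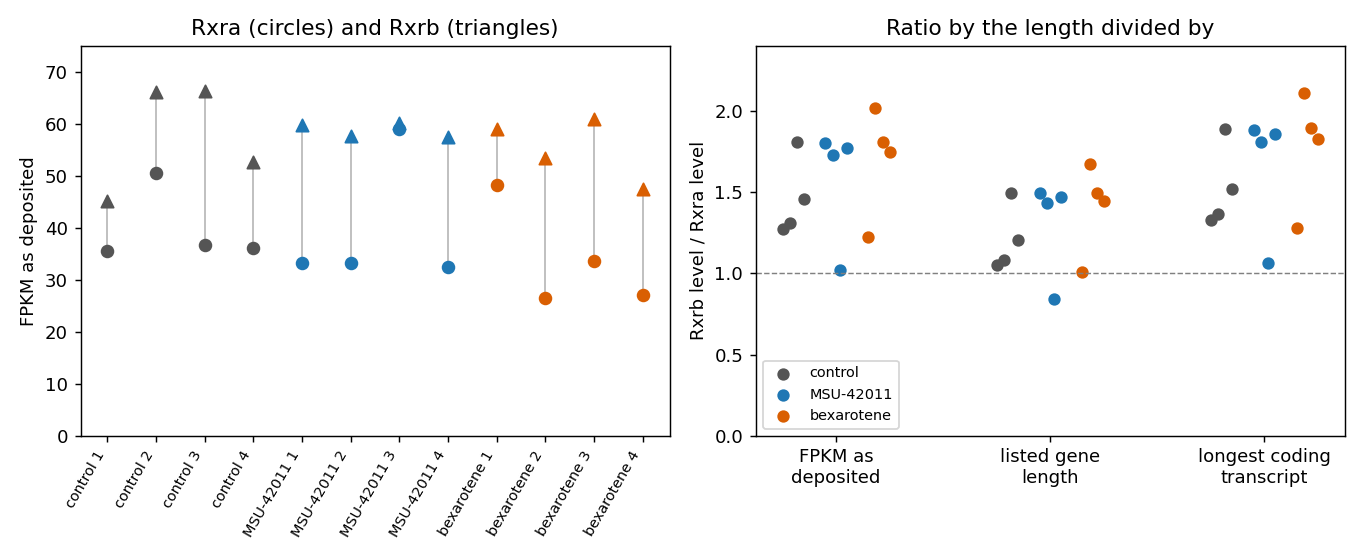
Left, deposited FPKM (y axis) of Rxra (circles) and Rxrb (triangles) in each tumor (x axis), joined by a line. Right, the ratio of Rxrb to Rxra (y axis) in each tumor when reads are divided by 3 different lengths (x axis), with equality dashed. The ratio exceeds 1 in 12, 11 and 12 of 12 tumors.

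For 96.7% of 29865 genes, the length implied by the FPKM was within 1 base of the mean length of the annotated transcripts in GENCODE M21. This held for Rxra (2227.2 bases over 6 transcripts) and Rxrg (1853 bases over 4). For Rxrb the M21 mean was 1436.1 bases over 10 transcripts, 6 of which are annotated as retained introns and 4 as protein coding, whereas the FPKM implies 1247. A shorter divisor gives a higher FPKM.

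The share of Rxra in the summed FPKM of the 3 receptors was 40.9 ± 3.80% in control tumors, 39.5 ± 6.71% with MSU-42011 and 37.5 ± 5.16% with bexarotene (SD, n = 4). The differences of −1.46 and −3.41 percentage points from control were within the spread (exact permutation p = 0.8286 and 0.3714, Benjamini-Hochberg over 3 pairs 0.8286 and 0.8143). The first became −4.81 when MSU-42011 replicate 3 was left out and −0.20 without replicate 1 of that group, and the second −5.89 without bexarotene replicate 1 and −1.93 without bexarotene replicate 2. The agonists differed by 1.95 points, which became −1.40 without MSU-42011 replicate 3. MSU-42011 replicate 3 had the highest share of all 12 tumors, at 49.5%. The summed FPKM of the 3 receptors was 97.4 ± 15.8 in control tumors, 98.2 ± 13.9 with MSU-42011 and 89.1 ± 14.8 with bexarotene. The 16 partner receptors together reached 482 ± 69.8, 494 ± 69.3 and 474 ± 23.0 FPKM in the same order. On the FPKM scale, the partners exceeded the RXRs in every tumor, by 4.15 to 6.44 times.

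Among themselves, the receptors showed no correlation across tumors that passed its test. For Rxra and Rxrb over the 12 tumors, the correlation of log2 CPM was Pearson r = 0.43 (permutation p = 0.164, Benjamini-Hochberg over 3 pairs of receptors 0.493) and Spearman rho = 0.39 (permutation p = 0.209, adjusted 0.433). Without the 2 tumors farthest from the median of Rxra, control replicate 2 and MSU-42011 replicate 3, r was 0.18. After subtracting group means it was 0.37. The pairs with Rxrg rest on 3 tumors with reads and gave r = 0.10 for Rxra (permutation p = 0.765, adjusted 0.765) and −0.15 for Rxrb (permutation p = 0.606, adjusted 0.765). Without bexarotene replicate 1 they were −0.29 and −0.23. Without the 2 tumors farthest from the median of the first receptor they were 0.50 and −0.27.

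The genes most like Rxra over the 12 tumors were Tmprss4, Angptl4, Hhat, Rapgef1 and Ifitm1, by Pearson correlation of log2 CPM. They are a description of these tumors and were picked for their r. Tmprss4, a membrane-bound serine protease gene, had r = 0.95, but its level of 0.245 to 1.28 CPM lay close to that of 3 reads in a tumor (0.116 to 0.181 CPM). Angptl4, which encodes a secreted inhibitor of lipoprotein lipase and is a known PPAR target, had r = 0.92 and ranged from 3.06 to 113 CPM. Hhat, the acyltransferase of Hedgehog proteins, had r = 0.92, Rapgef1, an exchange factor for Rap GTPases, had r = 0.91, and Ifitm1, an interferon-induced membrane protein gene, had r = 0.90 at 0.184 to 1.47 CPM. Without bexarotene replicate 1, these 5 values lay between 0.90 and 0.94. Within groups, after subtracting group means, they lay between 0.91 and 0.97. Without the 2 tumors farthest from the median of Rxra, they ran from 0.80 (Ifitm1) to 0.96 (Tmprss4).

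The 3 tumors with the highest Rxra also had the highest Angptl4. Control replicate 2 had 113 CPM of Angptl4 against 10.8 to 17.01 CPM in the other control tumors. MSU-42011 replicate 3 had 53.1 CPM against 5.11 to 12.9 CPM, and bexarotene replicate 1 had 68.9 CPM against 3.06 to 9.29 CPM. Each of these is the tumor in which Rxra was highest of its group. Without the 2 tumors farthest from the median of Rxra, r with Angptl4 was 0.88.

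The opposite pattern was led by the noncoding RNA gene Gm29107, 3110040N11Rik, the histone gene Hist1h2bc, the histone chaperone gene Asf1b and Dynlt1f, with r from −0.91 to −0.90. Without the 2 tumors farthest from the median of Rxra, these ran from −0.89 (Gm29107) to −0.74 (Hist1h2bc). In total 122 of 15503 genes had r of at least 0.8 with Rxra and 110 had −0.8 or lower. For Rxrb the numbers were 17 and 15. The genes most like Rxrb were the telomerase RNA gene Terc (r = 0.90, 0.119 to 1.84 CPM), Rai1 (0.89), Pigo, an enzyme of GPI anchor synthesis (0.88), the elongation factor gene Supt5 (0.87) and 6430550D23Rik (0.87). Terc in control replicate 1, at 0.119 CPM, lay below the level of 3 reads in that tumor (0.174 CPM). Control replicates 1 and 2 were the 2 tumors farthest from the median of Rxrb. Without them, Terc and 6430550D23Rik each fell to 0.68, Rai1 and Supt5 were at 0.82 and 0.83, and Pigo stayed at 0.89. The 5 most opposite to Rxrb were the pseudogenes Gm16580, Gm9385, Rpl17-ps4 and Gm28661 and the small protein gene Sh3bgrl3, with r from −0.91 to −0.83. Without the same 2 tumors these ran from −0.86 (Gm16580) to −0.62 (Gm28661). The neighbour Slc39a7, 122 bases from Rxrb, had r = 0.43 with it on 861 reads in total, and Col11a2, 1044 bases downstream, had r = 0.045.

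**Figure D4:**
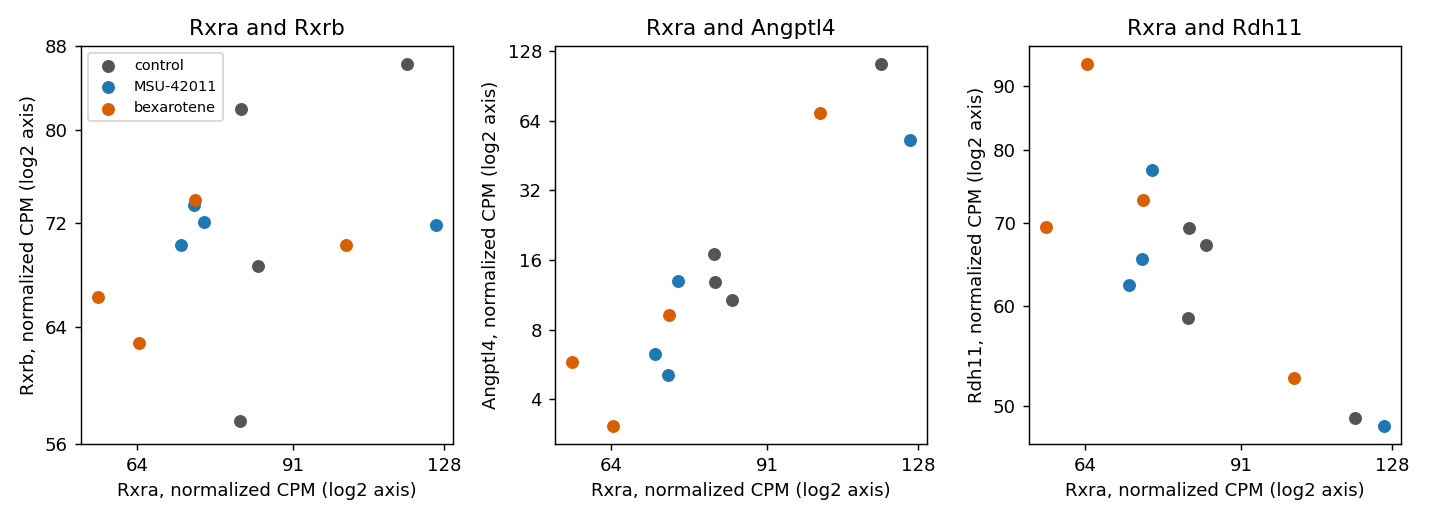
Normalized CPM of Rxrb, Angptl4 and Rdh11 (y axes, log2) against Rxra (x axis, log2) in the 12 tumors, colored by diet. Angptl4 is high and Rdh11 low in the 3 tumors with the highest Rxra, and Rxrb shows no such order.

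Of the 16 partner receptors, 12 passed the filter, and edgeR called 0 in each direction in every pair of diets, as did DESeq2. The most abundant by FPKM were Vdr, the vitamin D receptor (114, from 53.9 to 215), Nr1h2, the LXRβ gene (106, from 94.8 to 121), and Nr4a1, the orphan receptor Nur77 (97.8, from 69.9 to 141). Nr1h4, the bile acid receptor FXR, and the xenobiotic receptors Nr1i2 and Nr1i3 had 15 to 37 reads over all tumors, and the retinoic acid receptor gene Rarb had 86. The median log2 fold change of the 12 was 0.017 with MSU-42011 and 0.078 with bexarotene against control, beside 0.0016 and 0.030 over all genes. At an unadjusted p under 0.05 there was 1 partner gene in the direct comparison, where 3.95% of genes passed, and 0 in the others. That gene was Rara, the gene of retinoic acid receptor alpha, with 12.3 to 25.1 CPM under MSU-42011 and 21.3 to 34.1 CPM under bexarotene (log2 fold change −0.61 ± 0.25 SE, edgeR unadjusted p = 0.0317, adjusted p = 0.997). Vdr was at 150.7 ± 73.2 CPM with MSU-42011, 101 ± 19.7 with bexarotene and 149 ± 59.2 in control tumors (SD, n = 4). Ppara, the fatty acid receptor PPARα, was low, at 0.486, 0.652 and 0.776 CPM on average with control, MSU-42011 and bexarotene. Nr4a2, the Nurr1 gene, averaged 6.74, 9.31 and 10.2 CPM in that order.

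All 15 coregulators, the proteins that RXR dimers recruit to activate or silence genes, passed the filter, and 0 were called by edgeR or DESeq2 in any pair of diets. Their log2 fold changes ran from −0.16 to 0.26 with MSU-42011 and from −0.22 to 0.20 with bexarotene against control. With MSU-42011, 12 of 15 had a positive log2 fold change, with a median of 0.094 beside 0.0016 over all genes. The histone acetyltransferase gene Ep300 alone had an unadjusted p under 0.05 (65.7 to 90.2 CPM with MSU-42011 against 59.7 to 72.1 CPM in control, log2 fold change 0.26 ± 0.12 SE, edgeR unadjusted p = 0.0430, adjusted p = 0.9999). That threshold was passed by 1.99% of genes in the same pair of diets. In 4 of 15 the MSU-42011 and control groups did not overlap, beside 1.97% of all tested genes. Of these, the coactivators Ncoa1 (60.8 to 67.6 against 52.9 to 59.2 CPM) and Ncoa2 (47.9 to 53.2 against 37.8 to 47.4 CPM) and the corepressor Ncor1 (128.8 to 147 against 113 to 128.7 CPM) had the higher range with MSU-42011. The fourth was Hdac3, the deacetylase of the NCOR complex, named here for its range after its values were seen. It had the lower range, at 146 to 153 against 162 to 175 CPM. The gaps for Ncoa2 and Ncor1 were under 1 CPM.

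Of the 15 genes that make, carry or break down retinoids, the natural RXR and RAR ligands, 8 passed the filter and edgeR called 0. At an unadjusted p under 0.05 there was 1, Aldh1a3, between the agonists, where 3.95% of genes passed. The other 7 were low, and Lrat and Rpe65, enzymes of the retinyl ester cycle, had 0 reads in every tumor. Among the abundant ones were the binding protein genes Crabp2, with a mean of 110.1 FPKM, and Fabp5 (40.0) and the reductase gene Dhrs3 (80.5). Aldh1a3, an enzyme that makes retinoic acid, had 0.908 to 3.13 CPM with MSU-42011, 1.01 to 22.6 CPM in control and 0.490 to 50.2 CPM with bexarotene. Its log2 fold change of MSU-42011 against bexarotene was −3.10 ± 1.29 SE (edgeR unadjusted p = 0.0329, adjusted p = 0.997), which went to −0.50 without bexarotene replicate 1, the tumor at 50.2 CPM. Fabp5, a fatty acid binding protein that can deliver retinoic acid, averaged 124 ± 52.3 CPM with bexarotene and 62.3 ± 44.6 CPM in control (log2 fold change 0.99 ± 0.50 SE, edgeR adjusted p = 0.807). Dhrs3 averaged 117, 91.2 and 100.5 CPM and Rdh11, a retinal reductase gene, 61.0, 63.2 and 72.2 CPM with control, MSU-42011 and bexarotene. DESeq2 called 1 gene of the list in the direct comparison, Aldh1a2, which had 2 reads with MSU-42011 and 209 with bexarotene and did not pass edgeR's filter (adjusted p = 0.0351). Its bexarotene values were 5.12, 2.94, 0.0968 and 0.184 CPM in replicates 1 to 4. Between the agonists, DESeq2 called 0.153% of the genes it adjusted.

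Of the list drawn up as targets of permissive heterodimers, 12 of 14 passed the filter and edgeR and DESeq2 called 0 in either direction in any pair of diets. At an unadjusted p under 0.05 there was 1, Plin2, between the agonists, where 3.95% of genes passed. The median log2 fold change against control was 0.0038 with MSU-42011 and −0.036 with bexarotene, beside 0.0016 and 0.030 over all genes. Plin2, which coats lipid droplets, had the smallest p of the 3-group test in this list. It averaged 823 ± 186 CPM with MSU-42011, 771 ± 148 in control and 576 ± 156 with bexarotene (MSU-42011 against bexarotene, log2 fold change 0.51 ± 0.23 SE, edgeR unadjusted p = 0.0424, adjusted p = 0.997). Tgm2, tissue transglutaminase, which is also known as a target of retinoic acid receptor heterodimers, averaged 82.1 CPM with MSU-42011, 82.3 with bexarotene and 106 in control. Lpcat3, a phospholipid acyltransferase and LXR target, averaged 80.3, 84.7 and 70.5 CPM in the same order. None of these 3 passed an adjusted p of 0.05 in any pair of diets.

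Of the targets of nonpermissive heterodimers, 6 of 8 passed the filter, and 0 were called by edgeR or DESeq2 or had an unadjusted p under 0.05 in edgeR. Klf9, a thyroid hormone response gene, averaged 52.4 ± 8.31 CPM with MSU-42011 and 36.0 ± 14.5 CPM with bexarotene (log2 fold change 0.54 ± 0.26 SE, edgeR unadjusted p = 0.0603, adjusted p = 0.997). Cyp24a1, which degrades vitamin D, and Cyp26b1, which degrades retinoic acid, were low, at 0.595 to 11.5 CPM and 0.302 to 13.2 CPM with MSU-42011, and overlapped between all groups. The marker gene of retinoic acid response Dhrs3, also on this list, is given above.

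The list genes were also set beside the level of Rxra across tumors, as a description. Of the 12 permissive targets, 9 had a positive r with Rxra (median 0.34), beside 51.7% of all genes (median 0.025). The highest after Angptl4 were Mylip, an LXR-induced ubiquitin ligase gene (0.78), and Abca1, the cholesterol exporter gene (0.67), both named after their values were seen. Among nonpermissive targets 5 of 6 were positive (median 0.44), and among partners 7 of 12 (median 0.40), with Nr4a2 lowest at −0.72. Of the coregulators 12 of 15 were positive (median 0.32), led by Tbl1x (0.70) and Nrip1 (0.69). In the ligand supply list 4 of 8 were positive, and Rdh11 (−0.83) and Fabp5 (−0.81) had the most negative values of any list. Rdh11 stood at 48.8, 48.2 and 52.6 CPM in control replicate 2, MSU-42011 replicate 3 and bexarotene replicate 1, the lowest in each group. Without bexarotene replicate 1 the medians were 0.44 for permissive targets, 0.42 for nonpermissive targets, 0.29 for partners and 0.25 for coregulators. These medians keep control replicate 2 and MSU-42011 replicate 3, the 2 tumors farthest from the median of Rxra. They therefore cannot show how far the list values rest on those 2 tumors. The points share tumors, libraries and scaling factors, and r of Rxra was 0.22 with total reads and 0.19 with the TMM factor. With summed cell markers, r of Rxra ran from −0.17 for luminal epithelial markers to 0.54 for macrophage and for T cell markers. The part of cell content in the list values was not tested. With Rxrb the list medians were lower, from 0.011 for ligand supply to 0.31 for nonpermissive targets. The counts of positive r with Rxrb were 7 of 12 permissive targets, 5 of 6 nonpermissive targets and 7 of 12 partners. They were 12 of 15 for coregulators and 4 of 8 for ligand supply, beside 51.1% of all genes. Only for permissive targets was the count lower than with Rxra. The difference between Rxra and Rxrb was not tested.

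**Figure D5:**
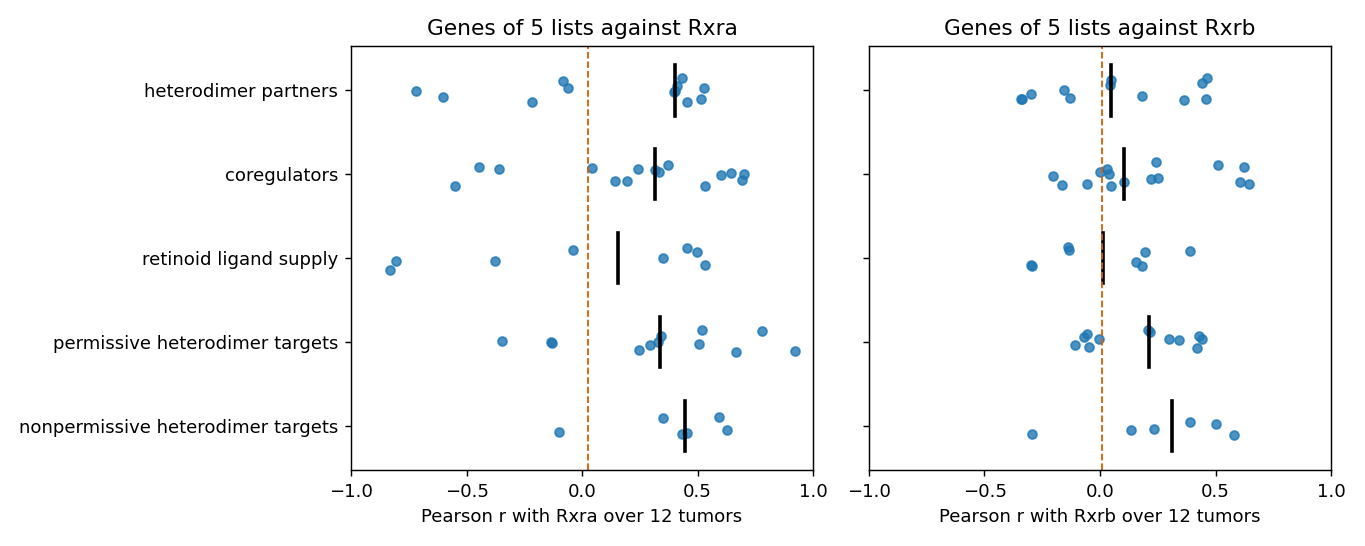
Pearson r over 12 tumors (x axis) of each tested gene of 5 lists (y axis) with Rxra (left) and Rxrb (right). Black bars are list medians and the dashed line is the median of all genes. For Rxra, the medians of partners, coregulators and both target lists lie between 0.32 and 0.44, beside 0.025 for all genes.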

How the data were processed

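Poly(A) RNA-seq libraries of 12 tumors were analyzed. The authors deposited raw read counts per gene, which the submitters' processing notes tie to STAR 2.6.1d and featureCounts 1.5.0-p3, and FPKM, in which the authors divided counts by depth and by a gene length. The build and the strand setting are not given in the sources used here. Groups were taken from the labels. Counts were scaled with TMM, filtered with filterByExpr (15504 of 54532 genes kept) and tested in edgeR 4.0.16 (R 4.3.3) with the quasi-likelihood F test, all 12 tumors in 1 fit, no covariate and Benjamini-Hochberg adjustment at 0.05. The study used DESeq2, here an alternative (1.42.0), as was limma 3.58.1 on log2(FPKM + 1 or 0.1) with a mean FPKM of at least 0.1. Correlations used log2(CPM + 0.5), and 100000 permutations for the pairs of receptors. Levels between genes were compared in FPKM. Between 1050 and 2785 reads of Rxra and 970 and 1906 of Rxrb per tumor set the counting error. The tests were checked on simulated counts.

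The members and lists were chosen with earlier results of these data known. The genes named are the receptors, up to 4 genes of each list with the smallest p of the 3-group test, the 5 genes most like each receptor and genes next to a receptor. The most opposite genes and others marked in the text were named after their values were seen. Other alternatives were other normalizations, filters and dispersion settings, a replicate term, the groups of a comparison fitted alone, and each tumor left out. Some genes of the lists enter their counts and medians but are not reported here by name.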

Additional observations from a re-analysis of the deposited data

Results flagged for a closer look

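In each diet group, the gap of the highest or lowest of 4 tumors to the nearest other was set against Dixon's 95% critical value. This was done for Rxra, Rxrb, the Rxra share and the named list genes, and not for Rxrg. Of 66 sets, 10 passed, where chance gives about 5%; over all tested genes it was 5.94% in control, 6.29% in MSU-42011-treated and 10.4% in bexarotene-treated tumors. Rxra was flagged for control replicate 2, at 118 CPM against 80.7 to 84.1 in the others, and for MSU-42011 replicate 3, at 126 CPM against 70.7 to 74.4. The share of Rxra was flagged for MSU-42011 replicate 3, at 49.5% against 35.7% to 36.6%. The coactivator Ncoa2 stood out in MSU-42011 replicate 1 (53.2 CPM against 47.9 to 48.04). Dhrs3 stood out in MSU-42011 replicate 2 (136 CPM against 71.2 to 79.5), and Klf9 was low in the same tumor (40.1 CPM against 55.7 to 58.1). Tgm2 was high in control replicate 2 (146 CPM against 90.5 to 94.7). Aldh1a3 was high in bexarotene replicate 1 (50.2 CPM against 0.490 to 4.72). Cyp26b1 was high in control replicate 1 (5.63 CPM against 0.587 to 1.42) and in bexarotene replicate 1 (11.7 CPM against 1.14 to 2.61).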

How the results depend on the processing

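No receptor passed the threshold in any pair of diets under any alternative that gave an adjusted p; DESeq2 gave none for Rxrg in the comparisons with bexarotene. Leaving out 1 tumor at a time, the log2 fold change of Rxra ran from −0.32 to 0.066 (MSU-42011 against control), −0.48 to −0.14 (bexarotene against control) and −0.039 to 0.40 (MSU-42011 against bexarotene). That of Rxrb ran from −0.13 to 0.052, −0.21 to −0.025 and 0.040 to 0.11. The sign reversed for Rxra without control replicate 2 (0.066) and without MSU-42011 replicate 3 (−0.039), and for Rxrb in MSU-42011 against control without control replicates 2 (0.052) and 3 (0.023) and with limma on log2(FPKM + 1) (0.046) or log2(FPKM + 0.1) (0.047). The difference in the Rxra share ran from −4.81 to −0.20 and −5.89 to −1.93 points against control and −1.40 to 4.43 between the agonists, reversing to −1.40 without MSU-42011 replicate 3. Cyp24a1 with MSU-42011 reversed to −0.073 without MSU-42011 replicate 1 (range without 1 tumor −0.073 to 1.37). DESeq2, with or without its Cook's distance filter, called 1 gene of ligand supply between the agonists. With that filter it called 0.153% of the genes it adjusted. Of the list, edgeR called 0 with its low-count filter or without it, and the cause was not tested. With the replicate block, the log2 fold changes were −0.11, −0.30 and 0.19 for Rxra and −0.022, −0.098 and 0.076 for Rxrb. The block changed no call. Same-numbered tumors correlated from −0.35 to 0.35. Differently numbered tumors were not set beside them, so this cannot decide whether the numbers pair the tumors, and the labels do not say. Rxrg gave no value with limma or with 10 reads in every tumor, and none for MSU-42011 against control without control replicate 4, where both groups are at 0. Rxrg, at 10 reads in total with 6 of them in bexarotene replicate 1, is limited by its low counts. Rxra and Rxrb are limited by the spread between tumors.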
